A study of Felis catus with 23 samples.

Results

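The miR-320 family on these serum arrays comprised 5 human microRNA (miRNA) names, hsa-miR-320a, hsa-miR-320b, hsa-miR-320c, hsa-miR-320d and hsa-miR-320e, out of 2026 miRNA names on the array. They were taken by name from the miRNA probes, and each had 2 probes, 10 probes in all. Serum came from 11 cats with HCM (hypertrophic cardiomyopathy, in which the muscle of the heart thickens) and from 12 healthy cats, 1 array per cat, with no treatment, breed, sex or age in the labels used here. The arrays carried probes for human miRNAs, and which cat miRNAs they bind was not tested, so the names below are those of the human probes. There were 3 HCM and 4 healthy arrays on slide 1, and 4 of each group on slide 2 and on slide 3. HCM arrays sat in row 1 and healthy arrays in row 2 of every slide, so row and group cannot be told apart.

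In humans miR-320a to miR-320d carry the same seed, the stretch near the 5′ end that pairs with target RNAs, and differ towards the 3′ end. miR-320e starts a base further in, so that its seed is offset. The miR-320 precursor is known, from work in mouse cells, for being made without Drosha, the nuclear enzyme that cuts most miRNA precursors: it is transcribed as a short capped hairpin and goes straight to export and Dicer. miR-320a is found in blood cells and in plasma, and in mouse hearts it has been studied in injury after loss of blood flow. Because the names are so alike in sequence, a probe for one may also bind another. Cross-binding between these probes was not tested. In serum, fewer releasing cells and less miRNA released per cell cannot be told apart.

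All 10 probes were detected on 23 of 23 arrays, meaning that at least 50% of their spots were marked by the scanner software as well above background. Each probe had 15 spots, all 15 of them well above background on every array, and 0 were saturated. The coefficient of variation over the spots of a probe on 1 array had a median between 2.76% and 5.91%, depending on the probe. The standard error over spots was between 0.010 and 0.023 on the log2 scale (median over arrays for each probe). The standard deviation (SD) over the 23 cats was between 0.52 and 0.67 for the same probes, so spot error was a small part of the spread. Over the 23 arrays the SD of the 5 names lay between 0.53 and 0.57, beside a median of 0.54 over the 543 names that passed the detection filter (detected on at least 6 arrays).

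Values below are log2 of the scanner's processed signal, scaled between arrays to the 75th percentile of the 508 probes detected on all arrays. The brightest probe stands for a name. The level of a probe depends on how well it binds, so levels of different names are not compared with each other.

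Of the family, hsa-miR-320e had the widest gap between HCM and healthy serum, and the other 4 names had differences close to 0. No name passed an adjusted p of 0.05. hsa-miR-320e ran from 8.02 through a median of 8.80 to 9.78 in HCM cats and from 7.48 through a median of 8.21 to 8.97 in healthy cats. The groups overlapped, but 10 of 11 HCM arrays lay above the healthy median, 4 HCM arrays lay above every healthy array, and 4 healthy arrays lay below every HCM array. The highest value belonged to HCM replicate 8 and the lowest to healthy replicate 18, both on slide 2. The means were 8.78 ± 0.49 in HCM and 8.22 ± 0.49 in healthy cats (n = 11 and 12, SD). The difference was 0.56 (SE 0.20). In limma this gave an unadjusted p of 0.0114 and a Benjamini-Hochberg adjusted p of 0.516 over 543 names. At an unadjusted p under 0.05, 20 of 543 names (3.68%) were higher in HCM, of which hsa-miR-320e was one. In either direction 36 of 543 names (6.63%) had such a p. At an adjusted p of 0.05 the count was 0 of 543 (0%).

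hsa-miR-320a ran from 6.61 through 7.78 to 8.86 in HCM cats and from 7.16 through 7.78 to 8.78 in healthy cats. The groups overlapped along nearly their whole length, and 6 of 11 HCM arrays lay above the healthy median. The means were 7.81 ± 0.58 in HCM and 7.82 ± 0.51 in healthy cats (n = 11 and 12, SD). The difference was -0.01 (SE 0.22, limma adjusted p 0.994). hsa-miR-320b ran from 6.83 through 7.93 to 9.18 in HCM cats and from 7.24 through 7.64 to 8.71 in healthy cats. Its difference was 0.12 (SE 0.23, limma adjusted p 0.891), smaller than its standard error. hsa-miR-320d ran from 7.22 through 8.31 to 9.45 in HCM cats and from 7.27 through 7.98 to 8.93 in healthy cats. Its difference was 0.13 (SE 0.23, limma adjusted p 0.885). For both names HCM arrays held the lowest and the highest value of all 23, replicates 2 and 8.

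hsa-miR-320c had the opposite layout, with the wider range in healthy cats. It ran from 9.06 through 10.09 to 10.34 in HCM cats and from 8.47 through 9.68 to 10.86 in healthy cats. Healthy replicates 20 and 19, both on slide 2, held the lowest and the highest value of all 23 arrays. The means were 9.88 ± 0.47 in HCM and 9.76 ± 0.66 in healthy cats (SD, n = 11 and 12), and the difference was 0.12 (SE 0.24, limma adjusted p 0.891). Across all 543 names the median difference was -0.10 with a median standard error of 0.22. Relative to that median the family differences were 0.09 for hsa-miR-320a, 0.22 for hsa-miR-320b, 0.22 for hsa-miR-320c, 0.23 for hsa-miR-320d and 0.66 for hsa-miR-320e. The sign of the hsa-miR-320a difference turned with the scaling (0.15 in the deposited values, 0.05 after quantile normalization, 0.41 with no scaling), and relative to the median of all names it ranged widely too (0.12 in the deposited values, 0.03 after quantile normalization, 0.20 with no scaling and 0.0047 with the total gene signal).

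**Figure D1:**
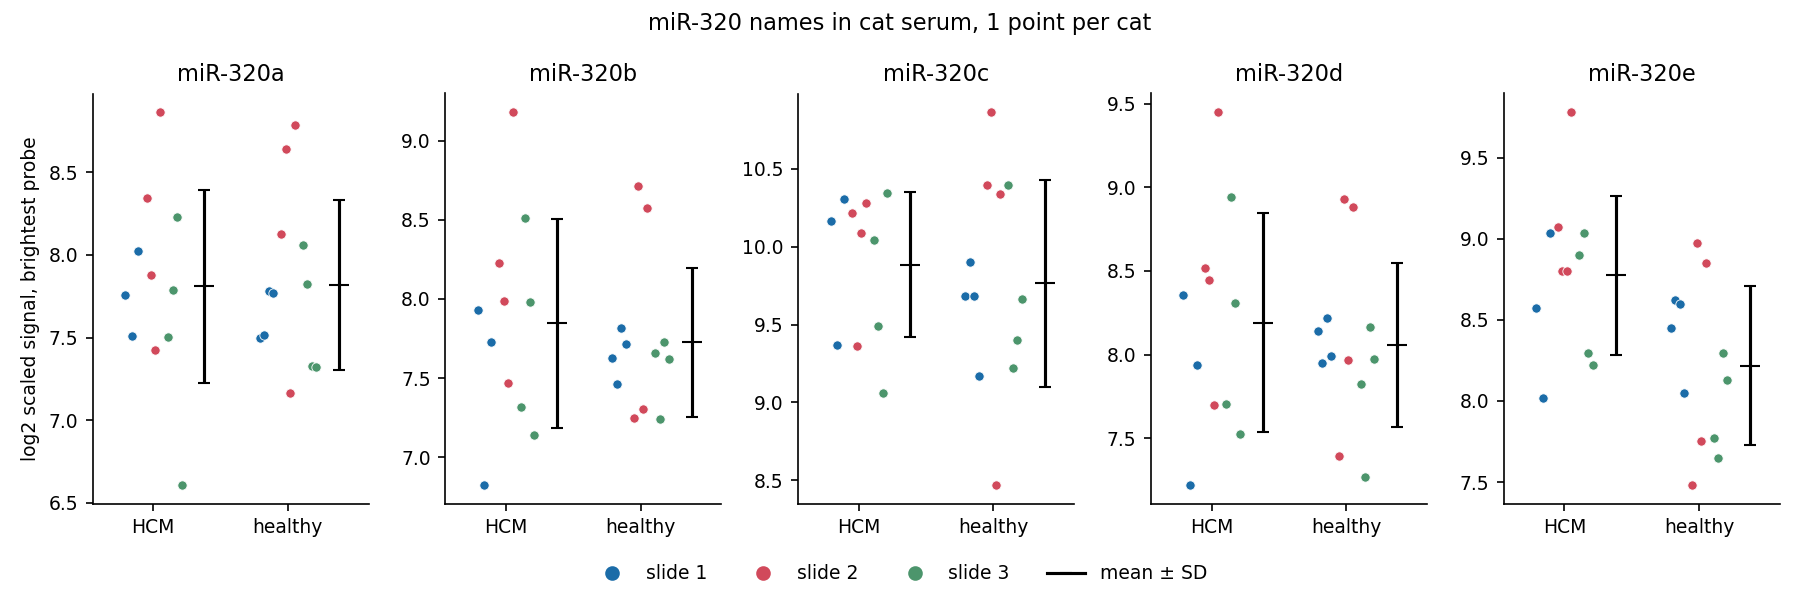
Log2 scaled signal of the brightest probe of each miR-320 name, HCM left and healthy right, 1 point per cat, coloured by slide, with mean ± SD (n = 11 and 12). Each panel has its own axis. The miR-320e points of 10 of 11 HCM cats lie above the healthy median of 8.21, and the other panels show groups that overlap along most of their range.

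Slides held both groups, so the differences could be read within each. For hsa-miR-320e the mean was 8.54 in HCM and 8.43 in healthy cats on slide 1, a difference of 0.11. On slide 2 it was 9.11 in HCM and 8.26 in healthy cats, a difference of 0.85. On slide 3 it was 8.61 in HCM and 7.96 in healthy cats, a difference of 0.65. The difference thus had the same sign on all slides (SE 0.27, 0.40 and 0.28 on slides 1, 2 and 3). The smallest value, on slide 1, was below its standard error. For the other names the sign changed between slides or the value stayed small. On slides 1, 2 and 3, hsa-miR-320a differed by 0.12, -0.05 and -0.10 and hsa-miR-320b by -0.16, 0.25 and 0.18. hsa-miR-320c differed by 0.34, -0.03 and 0.06 and hsa-miR-320d by -0.24, 0.23 and 0.31. A limma F test of slide by group gave an adjusted p of 0.998 for each of the 5 names, and 0 of 543 names (0%) passed. Slide itself, with group in the fit, passed for 0 of 543 names (0%), with adjusted p between 0.435 and 0.745 for the family. With slide as a block, hsa-miR-320e differed by 0.56 (SE 0.20, limma adjusted p 0.444).

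Both probes of each name moved together over the arrays. Their log2 values correlated at r = 0.956 for hsa-miR-320a, 0.990 for hsa-miR-320b, 0.943 for hsa-miR-320c, 0.991 for hsa-miR-320d and 0.980 for hsa-miR-320e over 23 arrays, a description of probes that share their arrays. The median over the 392 names with 2 such probes was 0.971. The gap between the probes of a name had an SD over arrays of 0.08 for hsa-miR-320b, 0.09 for hsa-miR-320d, 0.11 for hsa-miR-320e, 0.16 for hsa-miR-320a and 0.23 for hsa-miR-320c, beside a median of 0.14.

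At the level of single probes, the dimmer hsa-miR-320e probe (A_25_P00015663) had the larger difference. It averaged 8.37 ± 0.46 in HCM and 7.71 ± 0.44 in healthy cats (n = 11 and 12, SD). The difference was 0.66 (SE 0.19, limma unadjusted p 0.00183, adjusted p 0.197 over 1075 probes). The brighter hsa-miR-320e probe (A_25_P00015664) differed by 0.56 (SE 0.20, limma adjusted p 0.631). Of the 1075 probes tested, 0 (0%) passed, and the other 8 probes of the family lay between -0.05 and 0.17.

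In the log2 values that the authors deposited, the dimmer hsa-miR-320e probe did pass. It averaged 8.46 in HCM and 7.64 in healthy cats there, a difference of 0.82 (SE 0.19, limma unadjusted p 0.000218, adjusted p 0.0368 over 1750 probes). It was 1 of 13 such probes (0.743%), all of them higher in HCM, a count that 1 array could move. It was 0 without HCM replicate 12, between 1 and 4 without HCM replicate 3, 5, 6, 7, 8 or 9 or healthy replicate 14, 16, 18, 19, 20, 21 or 26, and between 10 and 14 without any 1 of the other 9 arrays. On slides 1, 2 and 3 alone it was 0, 8 and 0. The brighter probe differed by 0.72 (SE 0.21, limma adjusted p 0.173), and the other 8 family probes by 0.11 to 0.33, none of them past the threshold. By name, with the brightest probe, 5 of 543 names (0.921%) passed on the deposited values, all higher in HCM and none in the family (hsa-miR-320e limma adjusted p 0.127). At an unadjusted limma p under 0.05, 38 names were higher and 3 lower in HCM there, beside 20 and 16 with the main values. Without any 1 array between 4 and 7 names passed the adjusted threshold on the deposited values. With slide as a block, the dimmer probe differed by 0.82 in the deposited values (limma adjusted p 0.0409). The call on the dimmer probe was kept without HCM replicate 1, 2 or 11 or healthy replicate 15, 22, 23 or 25, each left out alone (limma adjusted p 0.0203 to 0.0498). It was lost without any other array, that is without HCM replicate 3, 5, 6, 7, 8, 9, 10 or 12 (limma adjusted p 0.0574 to 0.0840) or healthy replicate 14, 16, 17, 18, 19, 20, 21 or 26 (limma adjusted p 0.0505 to 0.0815). The difference stayed between 0.74 and 0.87 in the fits that lost the call and between 0.81 and 0.90 in those that kept it. The adjusted p also depends on the p of the other probes. Without healthy replicate 19 the call was lost at a difference of 0.87 (limma unadjusted p 0.000129). Without healthy replicate 15 it was kept at 0.81 (limma unadjusted p 0.000398).

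**Figure D2:**
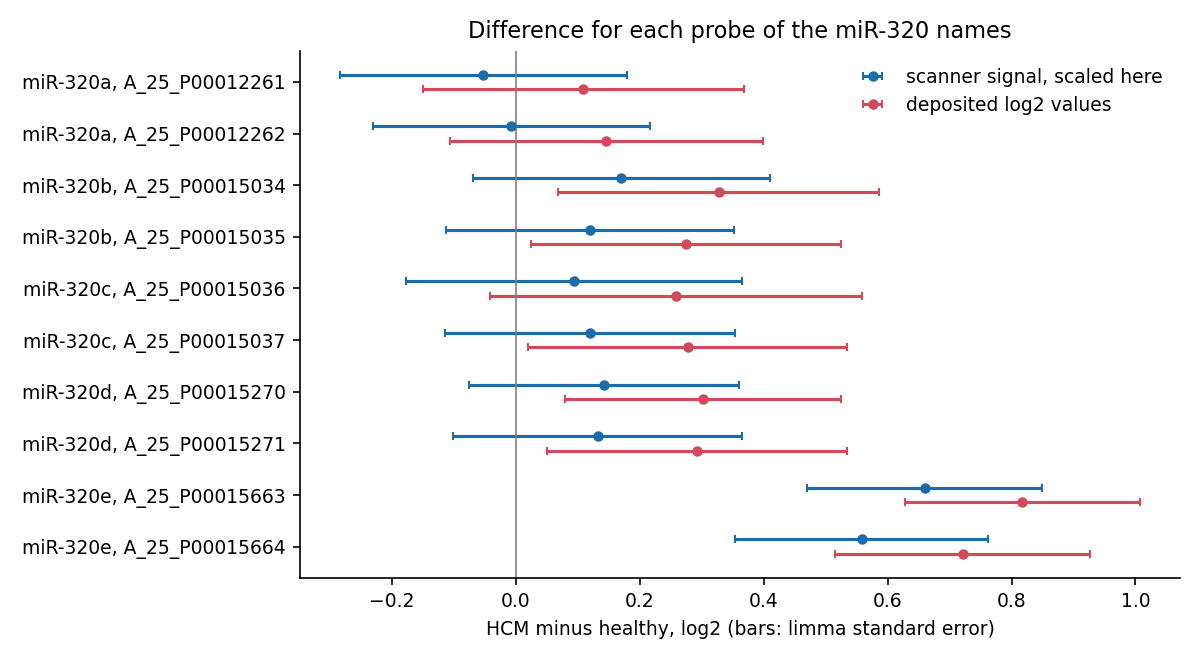
HCM minus healthy on the log2 scale for the 10 probes of the miR-320 names, with the limma standard error as bars, from the scanner signals scaled here and from the deposited log2 values. Both miR-320e probes lie at 0.56 to 0.82, and the other 8 probes at -0.05 to 0.33. For every probe the deposited values give the higher difference.

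The deposited and the scaled scanner values differed by nearly the same amount for every family probe of an array. Within an array the gap varied by at most 0.087 between the 10 probes. Between arrays its mean ran from -0.42 to 0.31. It averaged 0.09 on HCM and -0.07 on healthy arrays, which put 0.16 between the group differences of the 2 sets. The gap followed the brightness of the array, its log2 75th percentile over the scaling probes (Pearson r = 0.894, Spearman rho = 0.830, n = 23, permutation p 1e-05 for each, the smallest that 100000 resamples can give). Without healthy replicates 20 and 25, the arrays farthest from the median brightness, r was 0.835. Within slides 1, 2 and 3 it was 0.979, 0.989 and 0.750. Brightness itself was 8.22 ± 0.49 on HCM and 7.80 ± 0.91 on healthy arrays (SD, n = 11 and 12). With brightness as a covariate, the hsa-miR-320e difference was 0.62 (SE 0.21, limma adjusted p 0.318).

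**Figure D3:**
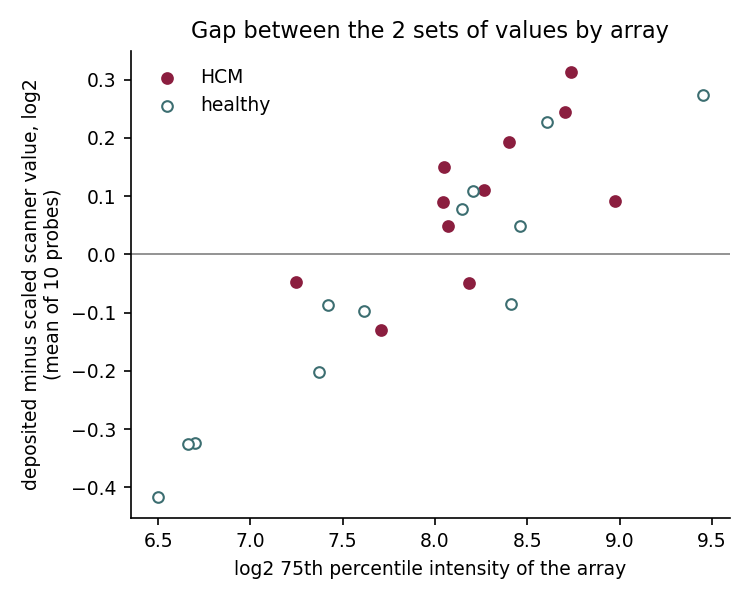
Mean gap between the deposited log2 values and the scanner values scaled here over the 10 family probes, against the log2 75th percentile intensity of the array, 1 point per array, HCM filled and healthy open. The gap runs from -0.42 on the dimmest array to 0.31, with r = 0.894.

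A ratio of 2 names on the same array does not depend on how that array was scaled, so the 10 pairs of family names were compared as log2 ratios. The level of a ratio reflects the probes and is not read here. Ratios with hsa-miR-320e on top were higher in HCM than in healthy cats by 0.43 to 0.57, and ratios among the other 4 names differed by 0.14 or less. hsa-miR-320e over hsa-miR-320d ran from -0.01 through 0.56 to 1.19 in HCM and from -0.22 through 0.11 to 0.67 in healthy cats. It exceeded the median of the healthy arrays on 9 of 11 HCM arrays, and 5 HCM arrays lay above every healthy array. The means were 0.58 ± 0.43 in HCM and 0.16 ± 0.24 in healthy cats (n = 11 and 12, SD). The difference was 0.43 (SE 0.15, 2-sided permutation p 0.00749).

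hsa-miR-320e over hsa-miR-320b ran from 0.31 through 0.84 to 1.58 in HCM and from 0.11 through 0.43 to 1.16 in healthy cats. It exceeded the median of the healthy arrays on 10 of 11 HCM arrays, with means of 0.93 ± 0.40 in HCM and 0.49 ± 0.30 in healthy cats (SD, n = 11 and 12). The difference was 0.44 (SE 0.15, permutation p 0.00769). hsa-miR-320e over hsa-miR-320a exceeded that median on 10 of 11 HCM arrays, with means of 0.97 ± 0.44 in HCM and 0.40 ± 0.57 in healthy cats. Its difference was 0.57 (SE 0.21, permutation p 0.0151). hsa-miR-320e over hsa-miR-320c exceeded it on 9 of 11, with means of -1.11 ± 0.51 in HCM and -1.55 ± 0.65 in healthy cats, and differed by 0.44 (SE 0.24, permutation p 0.0883). These 4 ratios share the hsa-miR-320e values and are not independent of each other. Over 23 arrays their r with array brightness lay between -0.261 and 0.123 (unadjusted permutation p 0.230 or more). Over healthy arrays alone it was -0.618, -0.527, -0.518 and -0.001 for the ratios to hsa-miR-320a, hsa-miR-320b, hsa-miR-320c and hsa-miR-320d. Over HCM arrays it was 0.502, -0.080, -0.149 and -0.103. The part of brightness in the ratio differences was not tested.

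How firm these ratio differences are depends on the test and on what they are set against. Adjusted over the 10 family pairs, which were chosen with results of these data known, the permutation p was 0.0384 for the ratios to hsa-miR-320b and hsa-miR-320d, 0.0502 for that to hsa-miR-320a and 0.221 for that to hsa-miR-320c. The limma p differed from these in the test as well as in the set of pairs. Unadjusted, the limma p was 0.0242, 0.0264, 0.0215 and 0.0971 for the ratios to hsa-miR-320b, hsa-miR-320d, hsa-miR-320a and hsa-miR-320c. Adjusted over all 147153 pairs of the 543 names, it was 0.597, 0.609, 0.583 and 0.850 in the same order. At that adjustment 0 pairs (0%) passed. Unadjusted, 3 of the 10 family pairs and 10173 of all pairs (6.91%) were under 0.05 in limma. Between 3.69% and 4.33% of all pairs had a lower p than those 3 family pairs. Among the other 6 family pairs the permutation p adjusted over the 10 was 0.820 or more.

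Leaving out a single array could end the calls within the family, and an adjusted p also depends on the p of the other pairs. The ratios to hsa-miR-320b and to hsa-miR-320d both lost theirs when HCM replicate 3, 5, 7, 9 or 12 was left out alone (permutation p adjusted over 10 of 0.0529 to 0.0775) and when healthy replicate 14, 15, 18, 19, 20, 21 or 26 was left out alone (0.0566 to 0.0717). They kept it without any 1 of the other 11 arrays. Without any 1 array the differences stayed between 0.37 and 0.50 and between 0.37 and 0.49. A lost call did not always go with a smaller difference. Without HCM replicate 2 the ratio to hsa-miR-320b kept its call at a difference of 0.41 (unadjusted permutation p 0.0140). Without HCM replicate 5 it lost the call at 0.45 (unadjusted permutation p 0.00975). The ratio to hsa-miR-320a passed when HCM replicate 2 or 11 or healthy replicate 16, 17, 22, 23 or 25 was left out (0.0140 to 0.0468). Without the 3 dimmest arrays, healthy replicates 20, 22 and 25, the ratio to hsa-miR-320d differed by 0.43 (permutation p adjusted over 10 of 0.0526) and that to hsa-miR-320b by 0.50 (0.0392).

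Within slides the ratio of hsa-miR-320e to hsa-miR-320d differed by 0.35, 0.62 and 0.34 on slides 1, 2 and 3, and that to hsa-miR-320b by 0.27, 0.60 and 0.48. The ratio to hsa-miR-320a differed by -0.01, 0.90 and 0.75 and that to hsa-miR-320c by -0.23, 0.88 and 0.59, so neither was higher in HCM on slide 1. An exact permutation test gave 0.0286, the smallest p that a slide of 4 against 4 allows, for the ratios to hsa-miR-320a, hsa-miR-320b and hsa-miR-320d on slide 2. On slide 1, with 3 against 4, the smallest possible exact p is 0.0571. With the groups permuted within slides, the differences were 0.44 for the ratio to hsa-miR-320d (permutation p 0.00525) and 0.46 for that to hsa-miR-320b (permutation p 0.00318).

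**Figure D4:**
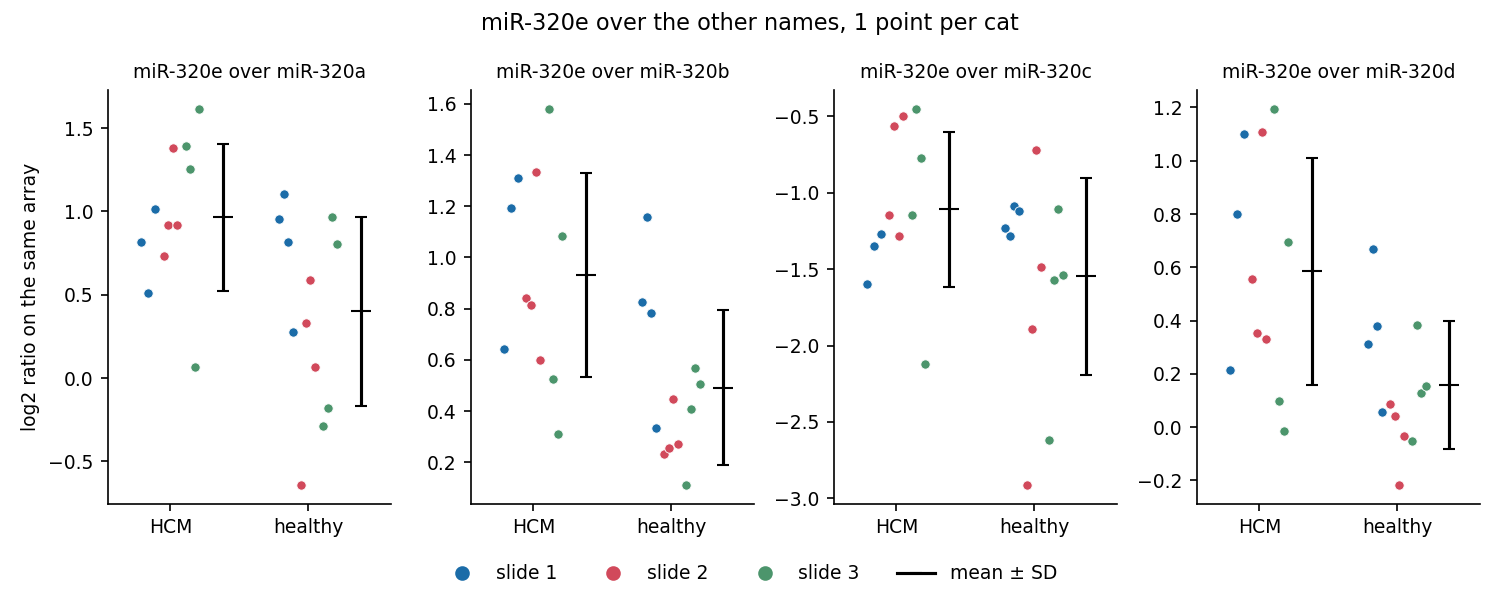
Log2 ratio of miR-320e to each other miR-320 name on the same array, HCM left and healthy right, 1 point per cat, coloured by slide, with mean ± SD (n = 11 and 12). The HCM means lie 0.43 to 0.57 above the healthy means, with overlap between the groups in every panel. Each panel has its own axis.

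Across arrays hsa-miR-320b and hsa-miR-320d moved almost as 1, and hsa-miR-320c apart from both. The log2 values of hsa-miR-320b and hsa-miR-320d correlated at Pearson r = 0.969 and Spearman rho = 0.948 (n = 23, permutation p 1e-05 for each, the smallest that 100000 resamples can give, and 0.0001 adjusted over 10 pairs). Without HCM replicate 8 and healthy replicate 19 r was 0.952, and on slides 1, 2 and 3 it was 0.955, 0.972 and 0.966. Of all pairs of the 543 names, 99.8% had a lower r. The log2 ratio of hsa-miR-320d to hsa-miR-320b had an SD of 0.14 over 23 arrays. The gap between the 2 probes of a name had a smaller SD for these names, 0.08 for hsa-miR-320b and 0.09 for hsa-miR-320d. The median of that gap SD over 392 names was 0.14. The SD of the ratio was 0.09 on HCM and 0.18 on healthy arrays, and the ratio differed by 0.01 between the groups (SE 0.06, permutation p 0.839).

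hsa-miR-320e followed hsa-miR-320d at r = 0.748 (rho = 0.649) and hsa-miR-320b at r = 0.733 (rho = 0.701), and hsa-miR-320a followed hsa-miR-320b at r = 0.758 (rho = 0.655). Adjusted over the 10 pairs, the permutation p of each of these r was 0.00015, and they were 0.623, 0.602 and 0.673 without the 2 arrays farthest from the median. On slides 1, 2 and 3 the r of hsa-miR-320e was 0.482, 0.833 and 0.640 with hsa-miR-320d and 0.532, 0.861 and 0.490 with hsa-miR-320b. That of hsa-miR-320a with hsa-miR-320b was 0.588, 0.860 and 0.502. hsa-miR-320a and hsa-miR-320d correlated at r = 0.634 (rho = 0.490, permutation p of r adjusted over 10 of 0.00242), and at 0.493 without HCM replicates 8 and 12. Within slides that r was 0.338, 0.755 and 0.310. hsa-miR-320a and hsa-miR-320e correlated at r = 0.442 (rho = 0.383, permutation p of r adjusted over 10 of 0.0572), at 0.284 without those 2 arrays, and at 0.556, 0.596 and -0.111 on slides 1, 2 and 3. Values on 1 array share its scaling factor, and the median r over all 147153 pairs of names was 0.016, with a 5th percentile of -0.475 and a 95th percentile of 0.633.

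The r of hsa-miR-320c with the other names was between 0.215 and 0.405, and none of the 4 relations passed after adjustment over the 10 pairs (permutation p 0.0740 or more). With hsa-miR-320d, r was 0.215 (rho = 0.043, permutation p 0.324), and 0.427, 0.309 and -0.337 on slides 1, 2 and 3. On those slides r was 0.448, 0.758 and -0.446 with hsa-miR-320a and 0.445, 0.517 and -0.413 with hsa-miR-320b. With hsa-miR-320e it was 0.912, 0.412 and -0.025. Leaving out the 2 arrays farthest from the median gave r = 0.570 with hsa-miR-320a, 0.119 with hsa-miR-320b, 0.093 with hsa-miR-320d and 0.262 with hsa-miR-320e. With hsa-miR-320a, r was -0.08 over the HCM arrays and 0.78 over the healthy arrays, a difference that was not tested.

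**Figure D5:**
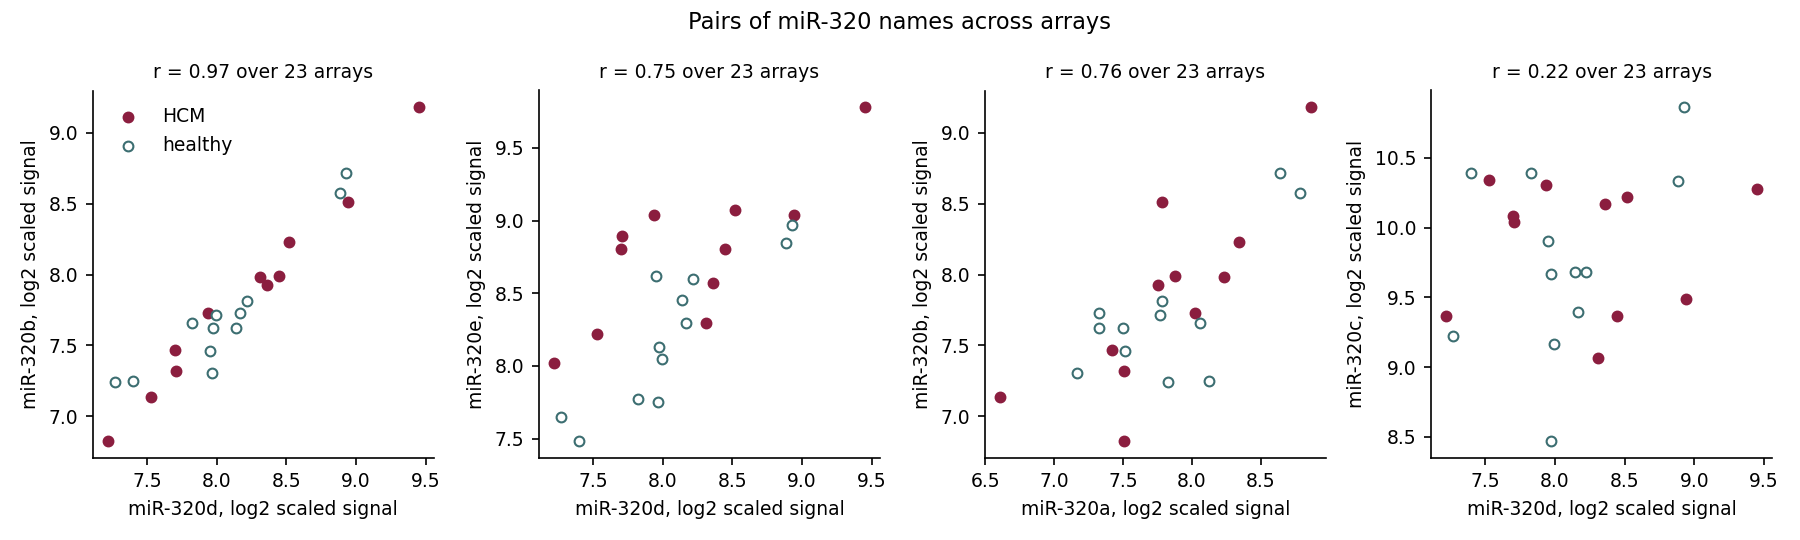
Log2 scaled signal of pairs of miR-320 names, 1 point per array, HCM filled and healthy open, 23 arrays in each panel. miR-320b against miR-320d lies close to a line (r = 0.969), miR-320e against miR-320d and miR-320b against miR-320a scatter more (r = 0.748 and 0.758), and miR-320c against miR-320d shows little order (r = 0.215).

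The names outside the family whose pattern over the 23 arrays was most like that of each member were picked for their Pearson r, so these values describe and carry no p. hsa-miR-320d was nearest to hsa-miR-326 (r = 0.839), hsa-miR-210 (r = 0.808) and hsa-miR-484 (r = 0.805). miR-484 is another miRNA whose precursor, in mouse cells, is a capped hairpin made without Drosha, and miR-210 is known for its induction by low oxygen. hsa-miR-320b was nearest to hsa-miR-151a-3p (r = 0.804), hsa-miR-210 (r = 0.764) and hsa-miR-106b-3p (r = 0.763). The last of these lay near the floor of 2.45, with means of 2.74 in HCM and 2.89 in healthy cats. hsa-miR-320a was nearest to hsa-miR-151a-3p (r = 0.744), hsa-miR-211-3p (r = 0.719) and hsa-miR-30d-5p (r = 0.682).

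hsa-miR-320c was nearest to hsa-miR-3945 (r = 0.874), hsa-miR-3667-5p (r = 0.868) and hsa-miR-370 (r = 0.866). With those 3 names, hsa-miR-320b and hsa-miR-320d had r between -0.084 and 0.045, hsa-miR-320a between 0.075 and 0.224, and hsa-miR-320e between 0.092 and 0.357. Of the 3, hsa-miR-3945 was dim, with means of 3.47 in HCM and 3.54 in healthy cats. hsa-miR-320e was nearest to hsa-miR-4462 (r = 0.676), hsa-miR-5700 (r = 0.638) and hsa-miR-484 (r = 0.613). hsa-miR-4462 correlated more with hsa-miR-320c (r = 0.728) than with hsa-miR-320e. Of the names nearest to hsa-miR-320e, hsa-miR-5700 differed by 0.89 between HCM and healthy serum (SE 0.24, limma adjusted p 0.238) and hsa-miR-4462 by 0.56 (SE 0.27, limma adjusted p 0.723), while hsa-miR-484 differed by -0.01 (SE 0.29, limma adjusted p 0.994). hsa-miR-5700 was dim, with means of 3.65 in HCM and 2.76 in healthy cats, the latter near the floor of 2.45. These names were picked for their r over the same arrays, so their differences are not independent of that of hsa-miR-320e.

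Other miRNAs whose precursors are capped hairpins or mirtrons, short introns that bypass Drosha, were listed as 17 names, of which 14 were on the array and 11 were tested. In limma 0 of the 11 passed the adjusted threshold and 0 had an unadjusted p under 0.05, beside 6.63% of all names, so that 0 of 11 is near the share over all names. Of the 11, 2 had a positive and 9 a negative difference, and the median was -0.13, beside -0.10 over all 543 names. The 3 of smallest p were hsa-miR-1225-3p with -0.30 (SE 0.22, limma adjusted p 0.802), hsa-miR-1229-3p with -0.23 (SE 0.17, limma adjusted p 0.802) and hsa-miR-1228-3p with -0.30 (SE 0.24, limma adjusted p 0.802). hsa-miR-320e at 0.56 lay above all 11, of which the highest was hsa-miR-877-3p at 0.06. So did hsa-miR-320b (0.12), hsa-miR-320c (0.12) and hsa-miR-320d (0.13), while hsa-miR-320a (-0.01) did not.

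Cells that can release miRNAs into serum were followed by their markers. Of 5 red cell markers 3 were tested. hsa-miR-451a differed by -0.90 (SE 0.80), hsa-miR-486-5p by 0.07 (SE 0.40) and hsa-miR-144-3p by 0.41 (SE 0.42). The sum of these 3 ran from 10.31 to 13.39 in HCM and from 10.41 to 13.72 in healthy cats on the log2 scale. hsa-miR-144-5p was detected on 0 arrays. Of 4 platelet markers 2 were tested. hsa-miR-223-3p differed by -0.56 (SE 0.37) and hsa-miR-197-3p by 0.16 (SE 0.28). The sum of these 2 ran from 3.92 to 5.40 in HCM and from 3.45 to 7.23 in healthy cats. hsa-miR-191-5p was detected on 0 arrays. Of 7 heart and skeletal muscle markers 1 was tested, hsa-miR-133b, detected on 10 arrays. It differed by 0.55 (SE 0.65, limma adjusted p 0.813). hsa-miR-1 and hsa-miR-208a were detected on 0 arrays, hsa-miR-133a and hsa-miR-499a-5p on 1, hsa-miR-208b on 2 and hsa-miR-206 on 3. hsa-miR-133b itself ran from 2.45, the floor, to 9.62 in HCM and from 2.45 to 5.19 in healthy cats. The liver marker hsa-miR-122-5p, detected on 10 arrays, ran from 2.45 to 7.93 in HCM and from 2.45 to 5.72 in healthy cats. Of the 7 tested markers 0 passed the adjusted threshold in limma, and 0 had an unadjusted p under 0.05, which is near the 6.63% of all names.

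The log2 difference of miR-451a and miR-23a-3p, a measure of red cell lysis, was -1.45 ± 1.32 in HCM and -0.58 ± 1.75 in healthy cats (SD, n = 11 and 12). Its correlation with the 5 names lay between -0.228 and -0.015 (rho between -0.176 and 0.030, n = 23), and that of array brightness between -0.118 and 0.251 (rho between -0.115 and 0.167). None of these 10 relations passed (permutation p adjusted over 10 of 0.946 or more for r and 0.983 for rho). Leaving out the 2 arrays farthest from the median left r between -0.187 and -0.009 for brightness and between -0.102 and -0.043 for the red cell measure. Within slides r ran from -0.411 to 0.627 for brightness and from -0.492 to 0.535 for the red cell measure. For hsa-miR-320e alone, r was -0.032 with brightness and -0.117 with the red cell measure. The part of platelets, red cells and other releasing cells in the hsa-miR-320e difference was not tested beyond these values.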

How the data were processed

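Serum miRNAs of 23 cats (11 HCM, 12 healthy) were measured on 1-colour Agilent arrays. Blood had 20 min to clot and 5 min in the centrifuge at 600 g, per the labels, before the serum was frozen. Per the file headers and the submitters' processing notes, spot intensity comes from Agilent Feature Extraction 10.7.3.1, with background subtracted and no normalization between arrays. The deposited spot flags of 0 or 1, per the file headers, hold other information than intensity. The authors also deposited log2 values for 1758 probes, 1750 of them for miRNAs. The log2 base and direction were read from their match to the intensities, and the normalization is not given in the sources used here. Column medians were 2.98 to 3.31.

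Control and outlier spots (1.81% to 3.95% per array) were left out, and spots of a probe averaged. Arrays were scaled to the 75th percentile (90.5 to 699) of the 508 probes detected on all arrays, and values were floored at 5.45 (log2 2.45, the 5th percentile of signals well above background). Of 4944 probes and 2026 names, 543 names, each by its brightest probe, and 1075 probes detected on at least 6 of 23 arrays were tested. An array detected 323 to 615 names. The number of arrays limits the precision.

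The group difference, HCM minus healthy, was fitted with limma 3.58.1 (2-sided lmFit and eBayes) in R 4.3.3 without covariates, with Benjamini-Hochberg adjustment over all tested names or probes and a threshold of 0.05. Log2 ratios of family names and correlations used 2-sided permutation tests with 100000 resamples, exact within slides, adjusted over 10, and the ratios also limma over all pairs. Both kinds of test were checked on simulated data. Python 3.11.15 with numpy 2.4.6, pandas 2.3.3, scipy 1.17.1 and matplotlib 3.10.9 was used for the rest. The planned normexp alternative used the median spot signal, since the files used here hold no mean signal. The members, lists and tests were chosen with earlier results of these data known. The names outside the family were the 3 tested names of highest Pearson r with each member, and up to 3 of smallest p from a list. Alternatives covered the values used, background correction, scaling, floor, filter, probe summary, slide, brightness and left-out arrays. No miRNA sequences were at hand, so none is printed.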

Additional observations from a re-analysis of the deposited data

How the results depend on the processing

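The hsa-miR-320e difference was positive in all 45 alternatives run by name (0.11 on slide 1 to 0.98 with no scaling, and 0.46 to 0.63 without any 1 array). In those 45 its limma adjusted p was never under 0.118. Fits on the deposited values with 1 array left out were not among them. There the brighter hsa-miR-320e probe had a limma adjusted p between 0.0541 and 0.333 over 1750 probes. The other 4 names had no call under any of their alternatives. In limma, names past the threshold were 0 with the main values, 5 with the deposited values, 4 with the scanner's total gene signal, 2 with the floor at its lower setting, 2 on slide 2 alone and 5 with the deposited values and slide as a block. Probes past it were 0 with the main values, 13 with the deposited values (0 to 14 without any 1 array, lowest without HCM replicate 12) and 14 with those and slide as a block. Without any 1 array 0 names passed with the main values and 4 to 7 with the deposited values.

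Signs turned where the main difference was near 0, and the cause was not tested. hsa-miR-320a (-0.01) was 0.15 with the deposited values, 0.13 with those and slide as a block, 0.069 with scaling over all probes, 0.046 with quantile normalization, 0.41 with no scaling and 0.12 on slide 1, and -0.11 to 0.11 without any 1 array. hsa-miR-320b was -0.16 on slide 1 and -0.014 to 0.22 without any 1 array, hsa-miR-320d -0.24 on slide 1, and hsa-miR-320c -0.029 on slide 2 and -0.042 without the 3 dimmest arrays. These left-out sets, the deposited values with a slide block or left-out arrays, the other probe of each name and limma over all pairs were chosen after seeing the data.

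Of the 10 family ratios, 2 passed over the 10 pairs, against 0 on slides 1, 2 and 3 alone, where fewer arrays limit the exact p, and 0 to 3 without any 1 array. On slide 1 the ratio of hsa-miR-320b to hsa-miR-320a was -0.28, of hsa-miR-320d to hsa-miR-320a -0.36, of hsa-miR-320e to hsa-miR-320a -0.0081, of hsa-miR-320d to hsa-miR-320b -0.077, of hsa-miR-320d to hsa-miR-320c -0.58 and of hsa-miR-320e to hsa-miR-320c -0.23. hsa-miR-320c over hsa-miR-320b was -0.025 with total gene signal, -0.038 with the mean of all probes, -0.28 on slide 2, -0.11 on slide 3, -0.077 with the other probe and -0.11 without the 3 dimmest arrays. hsa-miR-320d over hsa-miR-320b was -0.0077 with the mean of all probes, -0.021 on slide 2 and -0.028 with the other probe. hsa-miR-320d over hsa-miR-320c was -0.027 with normexp and -0.038 without the 3 arrays of highest miR-451a (healthy replicates 16 and 22, HCM replicate 10). Without any 1 array, hsa-miR-320c over hsa-miR-320a ran from -0.039 to 0.25, hsa-miR-320c over hsa-miR-320b from -0.12 to 0.11, hsa-miR-320d over hsa-miR-320b from -0.015 to 0.043 and hsa-miR-320d over hsa-miR-320c from -0.11 to 0.12. The ratio of hsa-miR-320e to hsa-miR-320a passed, adjusted over 10, with the deposited values (0.0447), normexp (0.0153), the mean of all probes (0.0495), the other probe (0.0495), without the 3 dimmest arrays (0.0392) and without the 3 of highest miR-451a (0.0364).

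No paired analysis was possible because the HCM and healthy arrays share no replicate numbers. Human probes on cat RNA, cross-binding between family names, which was not tested, the unknown normalization of the deposited values and the row of the slide, which cannot be told apart from the group, limit every value above. All family probes were well above background on every array, so detection did not limit them.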
